A study of Mus musculus with 12 samples.

Results

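Imprinted growth genes in 3 groups were followed through the H3K4 methylation of differentiating C2C12 cells: H19 with Igf2, Cdkn1c, and Dlk1 with Meg3. C2C12 is a mouse myoblast line, and the cells had spent 48 h (day 2) in low-serum differentiation medium with 10 µM of the LSD1 inhibitor S2101 or with vehicle. Each of the 3 marks has 1 library per treatment, so 6 peak lists were used. The members are the peaks that overlap 3 fixed windows of build mm9, at chromosome 7 149740000 to 149880000 (H19 and Igf2), chromosome 7 150610000 to 150665000 (Cdkn1c) and chromosome 12 110670000 to 110830000 (Dlk1 and Meg3). There are 16 such peaks of 134900 in the 6 lists. The labels place the H3K4me3 libraries in experiment 2 and those of the other marks in experiment 1, so a difference between H3K4me3 and another mark cannot be told apart from one between experiments. Per the labels, the cells of all 6 libraries were differentiating myoblasts, and without gene positions this was not checked against marker genes. The windows were drawn around the genes. No gene model of mm9 was used here, so a peak is placed in a window and not at a named gene, promoter, exon or intron.

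An imprinted gene is expressed mainly from the chromosome inherited from 1 parent. H19 is a maternally expressed long non-coding RNA that is abundant in fetal and differentiating muscle, and Igf2, its paternally expressed neighbour, encodes a growth factor that promotes myoblast differentiation. Cdkn1c encodes p57, a maternally expressed inhibitor of cyclin-dependent kinases that takes part in cell-cycle exit of muscle precursors. Dlk1, expressed from the paternal chromosome, encodes a membrane protein of the Notch ligand family, and Meg3 is the maternally expressed long non-coding RNA of the same domain. Active promoters carry H3K4me3, enhancers carry H3K4me1, and either can carry H3K4me2. LSD1 (Kdm1a) demethylates mono- and dimethylated H3K4. The peak lists do not separate the parental chromosomes, so each peak can come from either or both.

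Sequences of the gene products and promoters were taken from RefSeq tables of build GRCm38.p6, whose coordinates are not those of the peaks. H19 is the precursor of miR-675, shown because the window of H19 and Igf2 is the only one with H3K4me3 peaks in both treatments. Its 2 mature forms do not share a seed (bases 2 to 8, in capitals). They lie on the minus strand of chromosome 7.
mmu-miR-675-5p: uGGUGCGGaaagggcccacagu
mmu-miR-675-3p: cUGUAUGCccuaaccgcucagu

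Promoter entries matched 3 of the 5 genes, with 4 entries for Igf2, 1 for Dlk1 and 2 for Meg3; H19 and Cdkn1c had none. The Dlk1 entry and the first Meg3 entry are shown because their window held no H3K4me2 or H3K4me3 peak with either treatment. Each run is the 250 bases before the annotated start, on the plus strand of chromosome 12 at chr12:109452573-109452822 (Dlk1) and chr12:109540746-109540995 (Meg3) of GRCm38.p6, with CpG dinucleotides in capitals.
Dlk1: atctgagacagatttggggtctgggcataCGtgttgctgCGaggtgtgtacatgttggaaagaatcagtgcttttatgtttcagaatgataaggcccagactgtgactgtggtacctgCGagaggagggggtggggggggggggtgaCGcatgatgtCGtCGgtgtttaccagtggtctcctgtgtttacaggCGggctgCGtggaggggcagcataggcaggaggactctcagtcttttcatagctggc
Meg3: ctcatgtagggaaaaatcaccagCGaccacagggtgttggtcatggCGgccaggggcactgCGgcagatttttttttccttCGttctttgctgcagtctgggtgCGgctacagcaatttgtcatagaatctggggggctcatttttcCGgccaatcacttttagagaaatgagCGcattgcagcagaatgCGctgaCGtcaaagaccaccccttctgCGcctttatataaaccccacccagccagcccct

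The Dlk1 promoter held 8 CpG and the first Meg3 promoter 10, against a median of 6 over all 32851 promoter entries cut to the same 250 bases. As many as in Meg3 were found in 37.8% of entries, and as many as in Dlk1 in 43.0%. The second Meg3 entry held 0. The Igf2 entries held 6, 22, 10 and 1 CpG in order along the chromosome, and 14.8% of all entries reached 22. Searched on both strands, the cAMP response element TGACGTCA occurred in the first Meg3 promoter, with its first base 57 bases before the start (position -57), and in 1.55% of all entries. TATAAA occurred there at position -25 (a match on the other strand overlaps it) and in 12.4% of all entries. Neither motif was present in the Dlk1 entry, in any Igf2 entry or in the second Meg3 entry, and the E-box CANNTG, held by 66.2% of all entries, was in 1 Igf2 entry and in the second Meg3 entry. These matches describe letters in a window only.

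The 3 windows differed in which marks they carried. The window of H19 and Igf2 held 9 peaks of all 3 marks, the Cdkn1c window held 5 peaks of H3K4me2 and H3K4me3, and the window of Dlk1 and Meg3 held 2 peaks, both of H3K4me1. H3K4me3 was listed with vehicle in 1 of the 3 windows and with S2101 in 2. The vehicle lists gave 3 H3K4me1, 3 H3K4me2 and 1 H3K4me3 peak, of 40432, 21447 and 13589 in the whole lists. The S2101 lists gave 3 of each mark, of 20664, 24444 and 14324 in the same order. Counts from lists of unlike length are not directly comparable.

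In covered bases, H3K4me1 and H3K4me2 were lower with S2101 and H3K4me3 was higher. Over the 3 windows together, the length under H3K4me1 peaks was 1710 bp in the vehicle list and 956 bp in the S2101 list, a ratio of 0.559 (S2101 over vehicle), beside 0.347 over the 19 autosomes and X. For H3K4me2 the lengths were 3913 bp and 1315 bp, a ratio of 0.336 beside 0.467. For H3K4me3 they were 2133 bp and 3939 bp, a ratio of 1.85 beside 1.10. The higher H3K4me3 length came from the Cdkn1c window, with 0 bp in the vehicle and 1945 bp in the S2101 list, while the window of H19 and Igf2 had 2133 and 1994 bp. The H3K4me2 ratio was 0.189 in the H19 and Igf2 window and 0.795 in the Cdkn1c window, on either side of 0.467. The Dlk1 and Meg3 window held no H3K4me2 in either list. All these values come from single libraries of unknown depth. The H3K4me1 ratio turned to 1.48 when the longer vehicle list was cut by score to the length of the S2101 list, since 1 of its 3 peaks then remained, and it was 0.365 with the windows widened by 20 kb, close to the value over all chromosomes.

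**Figure D1:**
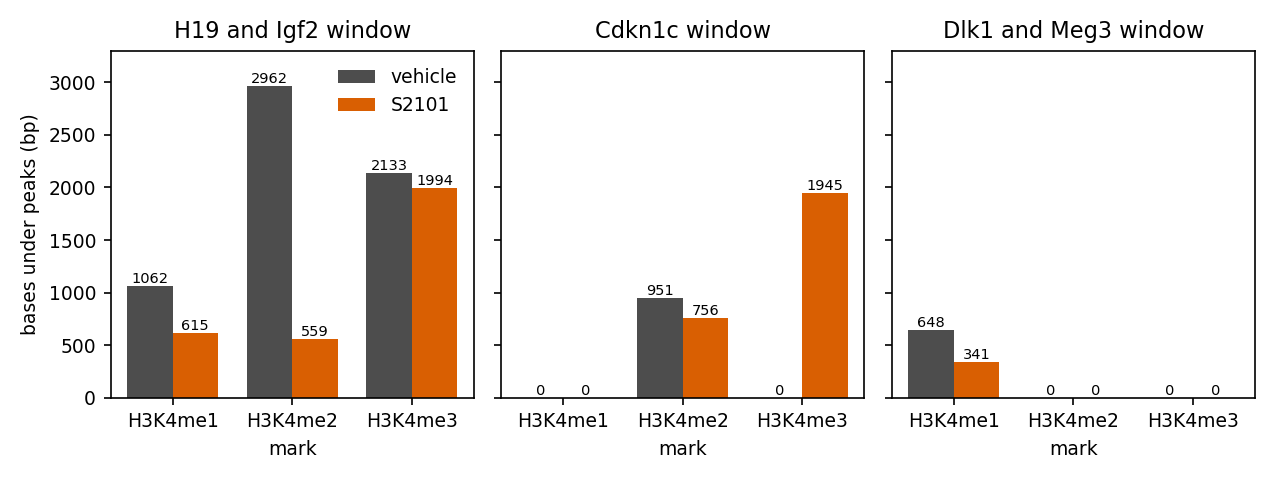
Bases under peaks (bp, vertical axis) by mark in each of the 3 windows, vehicle in grey and S2101 in orange, 1 library per bar and therefore no error bar. H3K4me2 in the H19 and Igf2 window stands at 2962 bp with vehicle and 559 bp with S2101, and H3K4me3 in the Cdkn1c window at 0 and 1945 bp.

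A peak was counted as found in the other treatment when the 2 peaks shared at least 1 bp. Among vehicle H3K4me1 peaks this held for 2 of 3, beside 33.0% of the whole list (95% Wilson interval 32.5 to 33.4%). Among S2101 H3K4me1 peaks it held for 2 of 3, beside 72.5% (71.9 to 73.1%). For H3K4me2 it held for 2 of 3 vehicle peaks, beside 74.2% (73.6 to 74.7%), and for 2 of 3 S2101 peaks, beside 96.1% (95.8 to 96.3%). The 1 vehicle H3K4me3 peak had an S2101 counterpart, beside 98.7% (98.5 to 98.9%). Of the 3 S2101 H3K4me3 peaks, 1 had a vehicle counterpart, beside 91.6% (91.1 to 92.0%). With a reciprocal overlap of at least 50%, 0 H3K4me1 peaks of either treatment and 1 H3K4me2 peak of each had a counterpart, and the H3K4me3 counts stayed at 1 and 1. The intervals cover counting error only, and no test was made of 1 to 3 peaks per list against these shares. Both S2101 H3K4me3 peaks without a counterpart lie side by side in the Cdkn1c window, so they are not independent.

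The H3K4me3 domain in the window of H19 and Igf2 lay at nearly the same place in both lists. With vehicle it ran from 149762012 to 149764144 (2133 bp, score 1143.92) and with S2101 from 149762019 to 149764012 (1994 bp, score 1400.37). The score is the authors' own value for a peak and ranks peaks within 1 list only. These scores stood at percentiles 25.9 and 28.4 of their lists, and the widths at percentiles 70.4 and 62.0. The S2101 peak began 7 bp later and ended 132 bp earlier, so it was 0.935 times as wide. Among the 12212 H3K4me3 peaks with a single counterpart the median ratio was 1.06, and 7.44% had a ratio of 0.935 or less.

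H3K4me2 over this same domain was listed with vehicle only. The vehicle peak spanned 149762001 to 149763972 (1972 bp, score 462.89), and 1961 bp of it lay under vehicle H3K4me3 and 1954 bp under S2101 H3K4me3. No S2101 H3K4me2 peak touched it or lay within 1 kb of it. Over the whole genome, 15286 vehicle H3K4me2 peaks overlapped H3K4me3 of both treatments, and 1451 of them (9.49%) had no S2101 H3K4me2 peak. The median score of those 1451 was 221 and their median width 923 bp, and 191 scored at least as high and 63 were at least as wide as the peak in this window. Among the 10697 such vehicle peaks that scored as high or higher, 1.79% had no counterpart. That share is lower than the 9.49% over all scores, so it depends on score. It does not give the rate among peaks of a similar score, which was not computed. Merged over all lists, 630 of 51372 regions (1.23%) held the same combination of H3K4me2 with vehicle only and H3K4me3 with both.

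A further H3K4me2 peak beyond the domain was listed with both treatments and had no H3K4me3. With vehicle it spanned 149765766 to 149766755 (990 bp, score 355.13) and with S2101 149766074 to 149766632 (559 bp, score 291.31). The S2101 peak lay wholly inside the vehicle peak and was 0.565 times as wide, beside a median of 0.503 over 10188 H3K4me2 pairs. Its score stood at percentile 54.8 of the S2101 list and that of the vehicle peak at percentile 38.9 of the vehicle list. Regions with H3K4me2 of both treatments and no other mark numbered 323 of 51372 (0.629%). In this window, then, the H3K4me2 peak outside H3K4me3 was the one found with both treatments, and the one under H3K4me3 was not.

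H3K4me1 in the window of H19 and Igf2 lay apart from the H3K4me3 domain. A peak at the start of the window ran from 149740136 to 149740713 with vehicle (578 bp, score 147.59) and from 149740056 to 149740411 with S2101 (356 bp, score 129.55). They shared 276 bp, and the width with S2101 was 0.616 times that with vehicle, near the median of 0.606 over 10293 H3K4me1 pairs. A vehicle peak at 149748155 to 149748638 (484 bp, score 161.20) had no S2101 counterpart. An S2101 peak at 149764675 to 149764933 (259 bp, score 103.42) had no vehicle counterpart and lay 663 bp from the end of the S2101 H3K4me3 peak. That score is close to the lowest in the lists, 100, and stood at percentile 9.22 of its list. None of the H3K4me1 peaks overlapped H3K4me3, beside 13.8% of all vehicle peaks (13.4 to 14.1%) and 8.68% of all S2101 peaks (8.30 to 9.07%) of this mark.

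The first H3K4me1 peak belonged to a group that went on outside the window. Within 20 kb before the window, 4 more vehicle H3K4me1 peaks and 1 S2101 peak were listed, all within 4081 bp of its edge. The vehicle peak at 149736166 to 149736827 had the highest score of the group, 298.63, and overlapped the vehicle H3K4me2 peak at 149736086 to 149736804 (score 168.01). The S2101 peak at 149738281 to 149738643 (score 138.18) overlapped none of the 4 vehicle peaks. In the GRCm38 gene table, the neighbours in order are Mrpl23, Nctc1, H19 and Igf2. Nctc1 is a non-coding RNA gene of muscle whose locus holds an enhancer used by H19 and Igf2. No peak was assigned to it here.

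The rest of the window carried no peak of any list. The last peak ended 26.8 kb from the start of the window, at 149766755, and the remaining 113 kb held no listed peak with either treatment. How common such a stretch is over the genome was not computed. Signal under the caller's threshold is not shown by the lists, so the marks may still be present there. No list had a peak in the 20 kb after the window either. Igf2 follows H19 in the direction of this stretch in the gene table, but the stretch was not assigned to it.

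**Figure D2:**
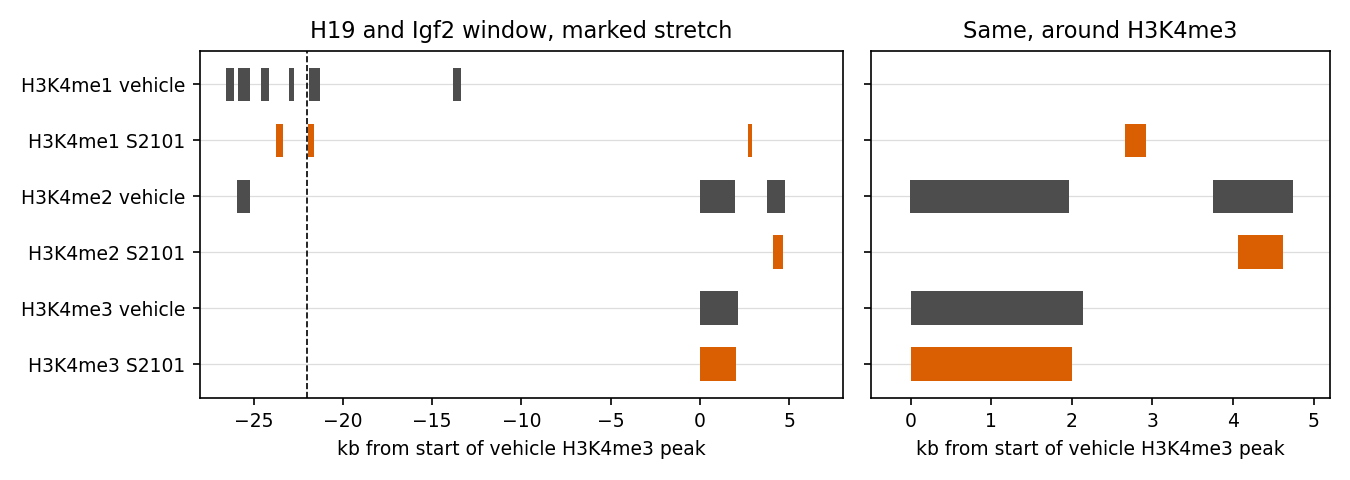
Peaks of the 6 lists around the H3K4me3 domain of the H19 and Igf2 window, in kb from the start of the vehicle H3K4me3 peak. The dashed line is at the start of the window, and the nearer peaks before it are shown too. The vehicle H3K4me2 and H3K4me3 peaks that end 19777 and 19985 bp before the window lie outside the panel. Vehicle peaks are grey and S2101 peaks orange; the right panel enlarges the domain, where the 1972 bp H3K4me2 peak of vehicle has no S2101 peak in the row below while H3K4me3 is present in both rows.

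In the Cdkn1c window, H3K4me3 was listed with S2101 only. The first of its 2 peaks ran from 150645050 to 150646308 (1259 bp, score 392.96) and the second from 150646328 to 150647013 (686 bp, score 250.11). Both scores were low for H3K4me3, at percentiles 16.0 and 11.4 of the S2101 list. The nearest vehicle H3K4me3 peaks lay 127 kb before and 68.7 kb after the window. The 1207 S2101 H3K4me3 peaks without a vehicle counterpart were 622 bp wide at the median and scored 151. Of these, 42 scored as high as the first peak (3.48%) and 24 were as wide. For the second peak, 181 scored as high (15.0%) and 410 were as wide (34.0%). Signal under the caller's threshold is not shown by the lists, so the vehicle value of 0 bp does not say that the mark was absent.

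H3K4me2 was listed in the Cdkn1c window with both treatments. The vehicle peak spanned 150645036 to 150645986 (951 bp, score 271.27), and 937 bp of it lay where H3K4me3 was listed with S2101. The S2101 list gave 2 H3K4me2 peaks, at 150645848 to 150646310 (463 bp, score 203.11) and 150646598 to 150646890 (293 bp, score 119.43). The first shared 139 bp with the vehicle peak, 14.6% of the vehicle and 30.0% of the S2101 peak, and the second shared none. The S2101 H3K4me2 peaks thus lay toward the higher coordinates, with the first starting 812 bp after and ending 324 bp beyond the vehicle peak. All but 2 bp of the first (461 bp) and the whole of the second were under S2101 H3K4me3. Over the 3 windows, 2 of 3 S2101 H3K4me2 peaks overlapped H3K4me3, beside 89.5% of that list (89.1 to 89.9%), and with vehicle 1 of 3, beside 71.8% (71.2 to 72.4%). Covered bases came to 951 bp (vehicle) and 756 bp (S2101), for a ratio of 0.795 beside 0.393 over chromosome 7.

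The H3K4me3 peaks found with S2101 only were also compared with H3K4me2 of each treatment. Of the 1207, 923 (76.5%) overlapped vehicle H3K4me2 and 693 (57.4%) overlapped S2101 H3K4me2. The same shares over all S2101 H3K4me3 peaks were not computed, so whether these are high or low was not tested. The first Cdkn1c region, 150645036 to 150646310, carried H3K4me2 of both treatments and H3K4me3 of S2101, a combination of 211 of the 51372 merged regions (0.411%). The second, 17 bp further on, carried S2101 H3K4me2 and H3K4me3 only, as 51 regions did (0.0993%). The split into 2 regions, and so this combination, rests on that 17 bp gap between called peaks. The H3K4me2 peak of the second region scored 119.43, at percentile 10.4 of its list. H3K4me1 was absent from the window in both lists. Its nearest peaks lay 353 kb before and 77.8 kb after the window with vehicle, and 324 kb and 78.0 kb with S2101.

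**Figure D3:**
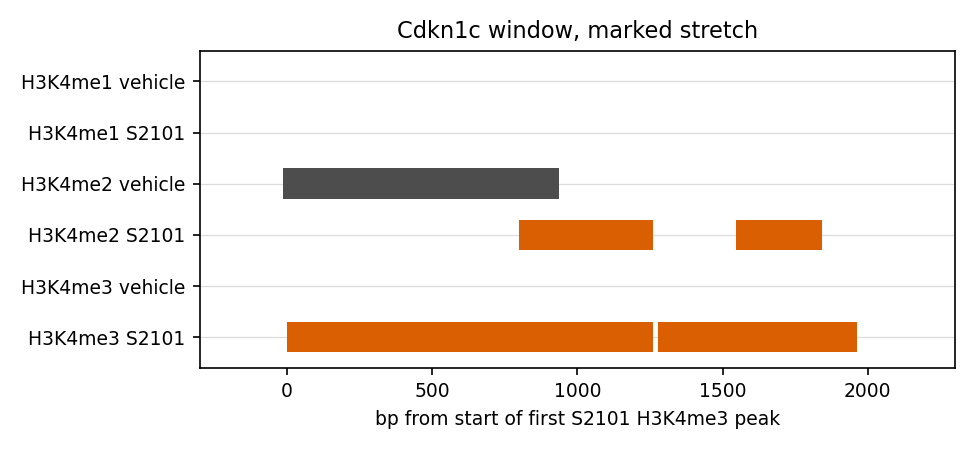
Peaks of the 6 lists in the marked stretch of the Cdkn1c window, in bp from the start of the first S2101 H3K4me3 peak, vehicle in grey and S2101 in orange. The 951 bp vehicle H3K4me2 peak lies over the first S2101 H3K4me3 peak (1259 bp), the 463 bp S2101 H3K4me2 peak at that peak's far end, and the vehicle H3K4me3 row is empty.

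The window of Dlk1 and Meg3 held a single H3K4me1 site and no H3K4me2 or H3K4me3 with either treatment. The H3K4me1 peak ran from 110679310 to 110679957 with vehicle (648 bp, score 188.35) and from 110679279 to 110679619 with S2101 (341 bp, score 129.54). They shared 310 bp, 47.8% of the vehicle and 90.9% of the S2101 peak, and the width ratio was 0.526. That ratio is below the list median of 0.606, with 38.2% of pairs at or below it. The scores stood at percentiles 52.4 and 41.3 of their lists. Regions with H3K4me1 of both treatments and no other mark, as here and at the start of the H19 and Igf2 window, made up 15.9% of all merged regions (8174).

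The lack of listed H3K4me2 and H3K4me3 peaks reached far beyond the Dlk1 and Meg3 window. No H3K4me2 or H3K4me3 peak of either treatment lay between 110306748 and 111684094 on chromosome 12, a stretch of 1.38 Mb. Of the 19683 gaps between such regions over the genome, with a median of 34.7 kb, 309 (1.57%) were as long. This share counts each gap once, whatever its length. A fixed window falls more often in a long gap, so the share does not say how unusual the stretch is for a window. The share of bases within gaps as long was not computed. H3K4me1 peaks within it numbered 4 with vehicle and 2 with S2101, and the site in the window was the one found with both. The other vehicle peaks, at 110866493 to 110867078, 110988201 to 110988612 and 111619711 to 111620133, had scores of 189.19, 164.34 and 139.76. The other S2101 peak, at 111383263 to 111383530, had a score of 101.63.

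The peaks of the 3 windows were of low to middle rank within their lists. Score percentiles ran from 9.22 to 54.8, and 2 of the 16 peaks, the vehicle H3K4me1 peak in the Dlk1 and Meg3 window and the S2101 H3K4me2 peak beyond the H19 and Igf2 domain, stood above the median score of their lists. The 6 peaks without a counterpart in the other treatment had score percentiles of 9.22 to 48.2 (median 13.7), with the vehicle H3K4me2 peak of the H19 and Igf2 domain the highest, and the 10 with a counterpart had 25.9 to 54.8 (median 37.8). The part of the score rank in these differences was not tested. At a score of 200 or more, no H3K4me1 peak was left in the windows, while all H3K4me3 peaks were.

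**Figure D4:**
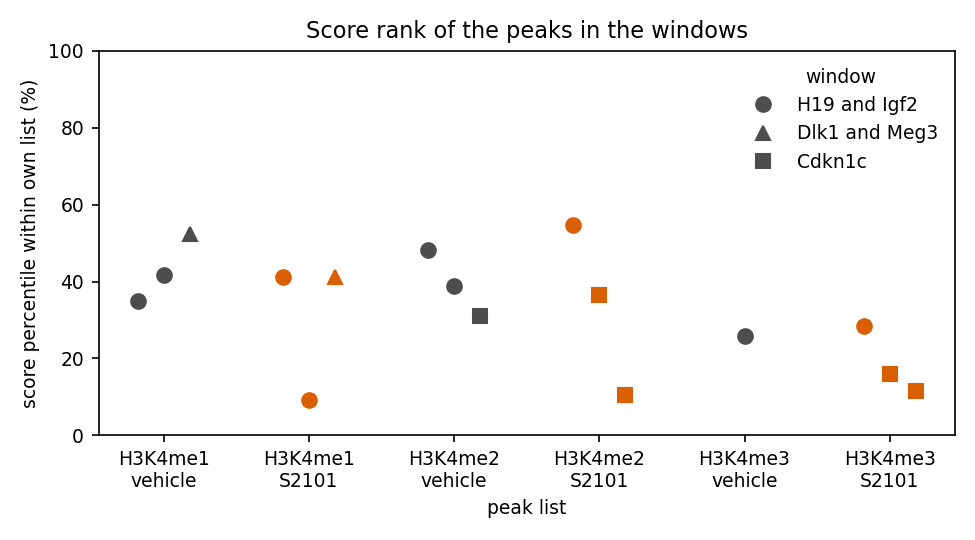
Score percentile of each of the 16 peaks within its own list (vertical axis, %), by list, with circles for the H19 and Igf2 window, squares for Cdkn1c and triangles for Dlk1 and Meg3, vehicle in grey and S2101 in orange. The points lie between 9.22 and 54.8, and the 2 Cdkn1c H3K4me3 peaks at 16.0 and 11.4.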

How the data were processed

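Each deposited file is a peak list of 1 library with a position and a score; per the file headers, the authors called peaks with MACS in Galaxy, and the score is the caller's value, from 100 to 3233.06. The submitters' processing notes name Bowtie2, deepTools and the build mm9. Read counts, settings and input use were not given in the sources at hand, so depth is unknown and nothing was scaled for it. The 4 inputs and 2 H3 samples were not analysed here. Per the labels, the replicate structure is 1 library per mark and treatment, so all comparisons are descriptive and no p-value was computed.

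Coordinates are 1-based. Covered bases are the union of peaks within the window. Percentiles give the share of the list at or below a value. Regions were merged from all 6 lists. Gene order, promoters and miRNAs come from RefSeq tables of GRCm38.p6, and no coordinate was converted. All peaks in the windows are named. The windows and genes were chosen with earlier results of these data known. Interval functions were tested on simulated lists against bedtools 2.31.1. Python 3.11.15, scipy 1.17.1 and matplotlib 3.10.9 were used.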

Additional observations from a re-analysis of the deposited data

How the results depend on the processing

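Of 51 alternative values for 19 results, 37 stayed within 1.5 times the reported value, and the others are given here. Some of the 37 could not have moved, so the tally does not measure robustness. No peak crossed a window edge, so counting whole peaks left the ratios as they were. Cutting to equal length left the shorter list of each mark unchanged. The 0 overlaps of H3K4me1 with H3K4me3 had to stay 0 when more overlap was asked for. At a score of 200 or more, H3K4me1 peaks in the windows fell from 3 to 0 with vehicle and from 3 to 0 with S2101, so those found in the other treatment were 0 and 0, and the H3K4me1 ratio could not be computed. With lists of equal length, 1 vehicle H3K4me1 peak remained and the H3K4me1 ratio of covered bases was 1.48, not 0.559. With windows widened by 20 kb, there were 7 vehicle H3K4me1, 5 vehicle H3K4me2 and 2 vehicle H3K4me3 peaks, and the H3K4me1 ratio was 0.365. The second vehicle H3K4me3 peak enters that setting only by its last bases (149718795 to 149720015). With a reciprocal overlap of 50%, 0 vehicle and 0 S2101 H3K4me1 peaks and 1 vehicle and 1 S2101 H3K4me2 peak had a counterpart. The H3K4me2 ratio ran from 0.261 to 0.336 and the H3K4me3 ratio from 1.83 to 1.85. Counting whole peaks, or peaks within 1 kb, changed no count or ratio by over 1.5 times. A count that moves between 3 and 2 falls within that limit. S2101 H3K4me2 peaks in the windows went from 3 to 2 at a score of 200 or more and with lists of equal length. Those with a vehicle peak within 1 kb were 3, against 2 by overlap. The unknown depth limits every statement that a peak was not listed.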
